A study of Mus musculus with 6 samples.

Results

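The genes described here encode enzymes that write or remove methyl and acetyl groups on histones. They were taken from the deposited gene table by their symbols, as autosomal protein-coding genes named Kmt, Kdm, Jmjd, Setd, Hdac or Kat followed by a number, with a mean of at least 1 CPM, counts scaled to the library total, over 6 libraries. Of 65 matching rows, 53 were autosomal and protein-coding, and 51 of these reached 1 CPM. The 51 members comprised 16 methyltransferases, 18 demethylases (Kdm and Jmjd), 8 acetyltransferases and 9 deacetylases, and all 51 were among the 16859 genes with enough counts to be tested. Just outside the level limit were Kdm4d (0.705 CPM) and Jmjd7 (0.622 CPM), and the nearest members above it, both well clear of it, were Setd4, at 7.62 to 11.1 CPM in MeHg libraries and 7.30 to 10.1 CPM in controls, and Kdm8, at 7.95 to 8.90 CPM in MeHg libraries and 8.67 to 10.9 CPM in controls. Members on the sex chromosomes, pseudogenes and non-coding genes made up the rest of the matching rows.

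The RNA came from the cerebellum of C57BL/6J mice 90 to 120 days old. In the MeHg group (3 mice) the dams drank water with 0.2 ppm of methylmercury, here MeHg, a neurotoxic form of mercury that crosses the placenta, throughout pregnancy, and in the control group (3 mice) the dams drank water with 0 ppm. Exposure of the dams ended at birth. Since no label gives the dam or litter, a p-value here reflects only how far these 6 mice differ. Total counts were 14487022 to 15975367 in MeHg libraries and 14116088 to 20303833 in controls. The labels give 2 females and 1 male to each group, but control replicate 2, labelled female, had 45.1 CPM of the Y-linked demethylase gene Kdm5d and 0.249 CPM of Xist, the levels of a male.

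Histone methyltransferases transfer methyl groups from S-adenosylmethionine to lysines of the histone tails, mostly through a SET domain, and demethylases remove them through a flavin-dependent oxidase (Kdm1) or an iron- and oxoglutarate-dependent JmjC domain. Acetyltransferases and deacetylases add and remove acetyl groups, which loosen the contact of histones with DNA and recruit bromodomain proteins. In humans, loss of a single copy of KMT2A, KMT2C, KMT2D, KMT2E, KMT5B, SETD1B or KAT6A is a known cause of developmental disorders with intellectual disability. These genes are examples and not a full list, and a link of such disorders with the results here was not tested. The symbols are those of a naming scheme and not of one activity: Setd3 methylates a histidine of actin, Jmjd6 and Jmjd4 act mainly on other proteins, and Kmt2e has no settled enzyme activity.

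The promoters of several members that were lower in MeHg are shown because these genes shared a level change and lie on different chromosomes. Each window holds the 250 bases before the annotated start, 5′ to 3′ on the strand of the gene, taken from RefSeq promoter windows of build GRCm38.p6, and each had 1 exact match in mm39. Capitals mark GGGCGG, the core of the GC box bound by Sp family factors, or its reverse complement CCGCCC.
Kmt2c, chr5:25703782-25704031 (mm39), minus strand: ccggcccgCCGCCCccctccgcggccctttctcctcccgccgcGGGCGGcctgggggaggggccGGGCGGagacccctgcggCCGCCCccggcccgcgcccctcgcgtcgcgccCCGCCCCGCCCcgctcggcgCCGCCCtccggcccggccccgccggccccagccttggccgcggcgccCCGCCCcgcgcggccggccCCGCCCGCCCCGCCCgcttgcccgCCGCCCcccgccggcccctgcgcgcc
Jmjd1c, chr10:66962617-66962866 (mm39), plus strand: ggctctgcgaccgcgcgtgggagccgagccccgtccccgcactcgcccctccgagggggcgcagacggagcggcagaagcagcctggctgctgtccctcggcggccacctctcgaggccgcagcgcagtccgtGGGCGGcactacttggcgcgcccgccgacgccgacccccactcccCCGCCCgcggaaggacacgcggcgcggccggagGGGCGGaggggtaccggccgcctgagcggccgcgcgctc
Kdm7a, chr6:39183708-39183957 (mm39), minus strand: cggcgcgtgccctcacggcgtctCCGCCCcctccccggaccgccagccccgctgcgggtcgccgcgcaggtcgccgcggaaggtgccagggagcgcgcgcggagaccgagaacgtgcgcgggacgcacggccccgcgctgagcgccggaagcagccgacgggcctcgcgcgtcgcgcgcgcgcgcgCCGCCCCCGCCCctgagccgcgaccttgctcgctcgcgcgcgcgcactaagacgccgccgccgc
Kdm1a, chr4:136330035-136330284 (mm39), minus strand: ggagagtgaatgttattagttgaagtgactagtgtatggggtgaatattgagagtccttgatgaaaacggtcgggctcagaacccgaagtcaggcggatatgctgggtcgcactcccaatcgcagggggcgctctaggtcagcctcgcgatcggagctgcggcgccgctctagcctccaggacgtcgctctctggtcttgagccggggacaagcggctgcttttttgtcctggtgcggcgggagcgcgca
Kdm1a, chosen for display after its value was known, is a demethylase gene whose level did not pass the test. The window of Kmt2c held 12 copies of the hexamer, those of Jmjd1c and Kdm7a 3 each, and that of Kdm1a 0. The RefSeq start of Jmjd1c lies 30963 bases inside the gene start of the deposited table. RefSeq windows were found for 39 of the 51 members and for 5 of the 8 that passed the test. The hexamer was present on either strand in 5 of those 5, in 18 of the 34 others (52.9%) and in 33.0% of 27025 promoter windows of the same length. The 27025 windows were not limited to tested genes, whereas all members were tested. The median number of CpG dinucleotides was 40 in the 5 windows, 17 in the 34 and 6 over all windows. TATAAA was present on either strand in 0 of the 5 windows, in 2.56% of the members' windows and in 13.0% of all windows.

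The comparison asked whether MeHg given to the dam was followed by different RNA levels of these enzymes in the adult offspring. In all, 8 members fell and 0 rose in MeHg at an adjusted p under 0.05 (edgeR quasi-likelihood test over all 16859 genes, Benjamini-Hochberg adjusted, 3 libraries against 3). That was 15.7% of the members, against 1.79% of all tested genes called lower and 0.575% called higher (2.36% in either direction). The 8 were the methyltransferase genes Kmt2c, Kmt2a, Kmt2e, Setd1b and Kmt5b, the demethylase genes Jmjd1c and Kdm7a, and the acetyltransferase gene Kat6a, which fell by 20.01% to 33.9%. At an unadjusted p under 0.05, 24 members were lower and 1 was higher, against 12.7% and 11.8% of all tested genes. All 3 MeHg libraries lay below all 3 controls in 29 members (56.9%, against 15.5% of all tested genes) and above them in 1, Hdac11 (13.9% of all tested genes). The median log2 fold change, given throughout as MeHg over control, was -0.17 over the members and 0.01 over all tested genes, and 41 of 51 members were negative (80.4%, against 48.9%). Members were below the mean of the controls in 40, 41 and 41 of 51 cases in MeHg replicates 1, 2 and 3, and in 29, 34 and 17 in control replicates 1, 2 and 3. Together they took 0.422%, 0.412% and 0.399% of the counts in the MeHg libraries, against 0.476%, 0.457% and 0.490% in the controls.

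The adjusted p of the 8 lay between 0.0431 and 0.0466, close to the threshold, and the number that passed changed with the libraries used. It was 0 without MeHg replicate 1, MeHg replicate 3, control replicate 1 or control replicate 3, 11 without MeHg replicate 2 (4.16% of all tested genes called lower) and 6 without control replicate 2 (1.01%). In the 4 fits with 0 members, 0 genes were called lower and at most 2 higher among all those tested. Without both libraries numbered 2, which include the control whose sex label did not match, 14 members fell (6.65% of all tested genes called lower in that fit). In these fits and in all others tried, the log2 fold changes of the 8 stayed negative.

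**Figure D1:**
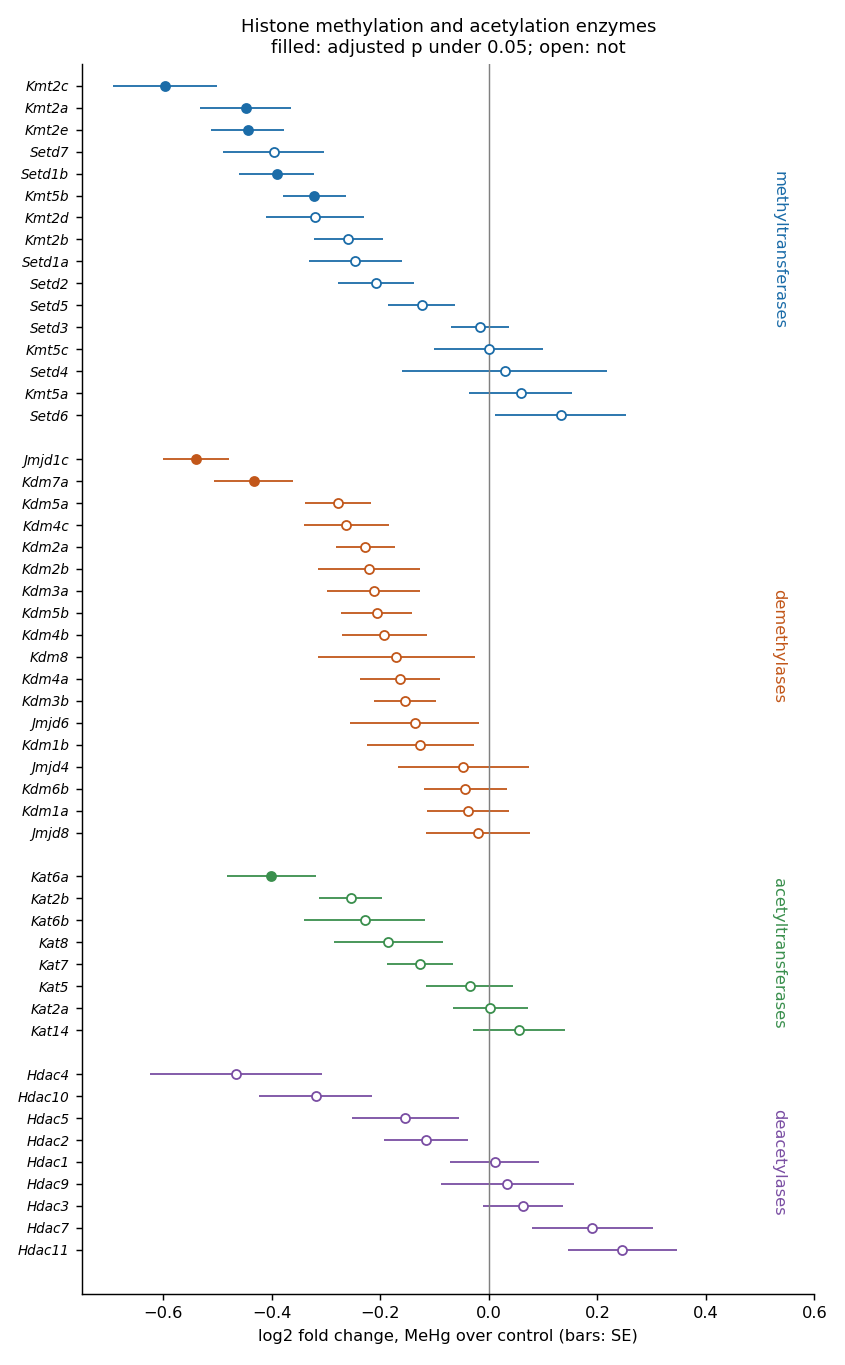
Log2 fold change of each member, MeHg over control, on the horizontal axis, with bars for the SE and filled points for an adjusted p under 0.05, members ordered within the 4 classes. The 5 filled methyltransferases, 2 demethylases and 1 acetyltransferase lie to the left of 0, and the 9 deacetylases, all open, lie on both sides.

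Among the methyltransferases, the KMT2 and SETD1 genes were lowest as a group. Apart from Kmt2e, whose protein has no settled enzyme activity, these genes encode the catalytic subunits of COMPASS complexes, which methylate lysine 4 of histone H3 (H3K4): Kmt2a and Kmt2b mainly at promoters, Kmt2c and Kmt2d mainly at enhancers, and Setd1a and Setd1b at most active promoters. In all 7 genes, Kmt2e included, the MeHg libraries lay below the controls, 4 fell (Kmt2e and 3 genes for H3K4 methyltransferases), and the median log2 fold change was -0.39. Of all tested genes, 15.5% had that separation and 1.79% fell, and of those of at least 10000 bases 42.5% and 10.7%. The median gene length of the 7 was 12068 bases.
Kmt2c (chr5:25476796-25703781, mm39, minus strand) had 163, 172 and 143 CPM in MeHg replicates 1, 2 and 3, against 249, 211 and 262 CPM in control replicates 1, 2 and 3. The highest MeHg library lay below the lowest control, and the gene fell by 33.9%, or -0.60 ± 0.10 as log2 fold change with its SE (edgeR, adjusted p = 0.0431), the largest fall of the 51. Its paralogue Kmt2d (chr15:98729550-98769085, minus strand) was at 183 ± 17.6 CPM in the MeHg libraries against 229 ± 21.5 CPM in the controls (SD, n = 3 each), -0.32 ± 0.09 (adjusted p = 0.0837), and did not pass.
Kmt2a (chr9:44714652-44792594, minus strand) had 229, 224 and 196 CPM in the MeHg libraries, against 296, 270.5 and 319 CPM in the controls. The groups did not overlap, and Kmt2a, the founding mammalian member of the family and a regulator of Hox genes, fell by 26.7% (-0.45 ± 0.08, adjusted p = 0.0433). Kmt2b (chr7:30268283-30288151, minus strand), its closest relative, was at 101 ± 5.76 CPM in the MeHg libraries against 121 ± 3.89 CPM in the controls (SD), -0.26 ± 0.06 (adjusted p = 0.0617).
Kmt2e (chr5:23639439-23709233, plus strand), whose protein binds trimethylated H3K4 through a PHD finger, had 117, 128 and 111 CPM in the MeHg libraries, against 166, 159 and 159 CPM in the controls. Control replicates were close together, and the gene fell by 26.5% (-0.44 ± 0.07, adjusted p = 0.0431).
Setd1b (chr5:123280256-123306692, plus strand) had 63.7, 62.0 and 59.8 CPM in the MeHg libraries, against 86.1, 76.4 and 80.9 CPM in the controls. It fell by 23.8% (-0.39 ± 0.07, adjusted p = 0.0431), while Setd1a was at 33.7 ± 2.61 CPM in the MeHg libraries against 39.99 ± 1.41 CPM in the controls (SD), -0.25 ± 0.09 (adjusted p = 0.132). The difference in fold change between Setd1b and Setd1a was not tested.

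**Figure D2:**
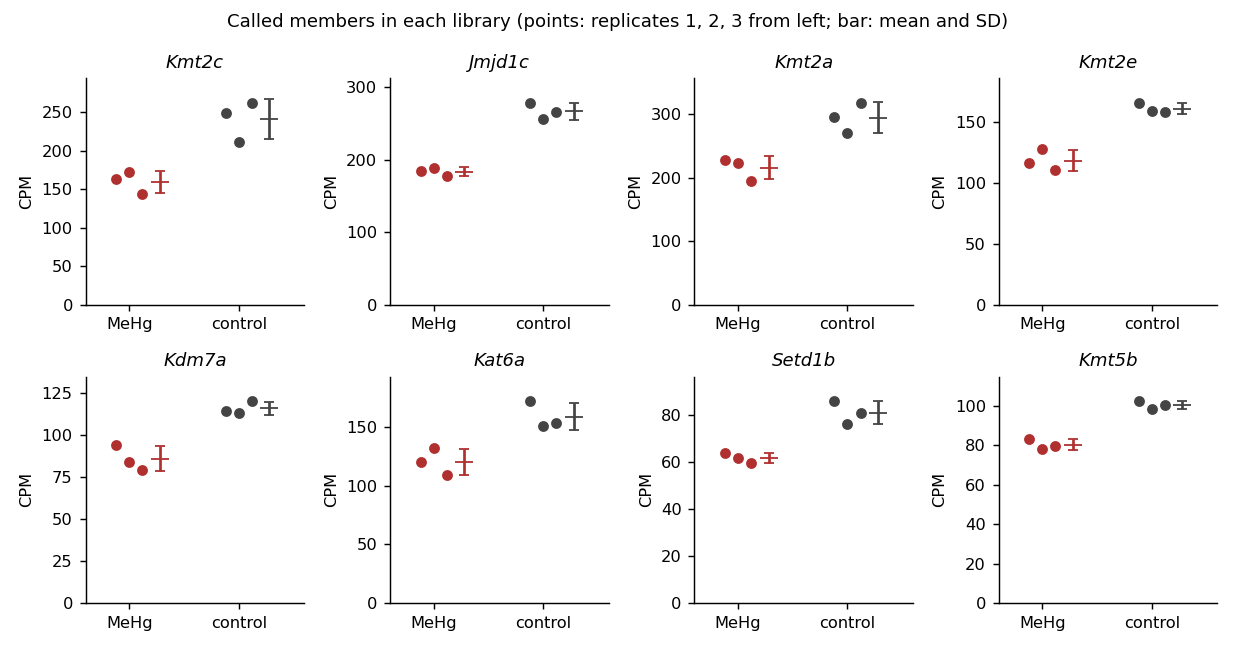
CPM of the 8 members that passed, on axes starting at 0, with 1 point per library (MeHg on the left in red, control on the right in dark grey) and the mean and SD of 3 libraries beside them. In each of the 8 panels the 3 MeHg points lie below the 3 control points.

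Of the 9 other methyltransferase genes 1 fell, against 1.79% of all tested genes. The KMT5 genes methylate lysine 20 of histone H4, Kmt5a adding the first methyl group and Kmt5b and Kmt5c further ones. Kmt5b (chr19:3817421-3868303, plus strand) had 83.3, 78.1 and 79.8 CPM in the MeHg libraries, against 102, 98.6 and 100.5 CPM in the controls. Both groups were tight, and the gene fell by 20.01% (-0.32 ± 0.06, adjusted p = 0.0431). Kmt5a (44.6 ± 4.72 CPM in the MeHg libraries against 42.8 ± 2.28 CPM in the controls, SD; 0.06 ± 0.10) and Kmt5c (30.4 ± 1.73 CPM in the MeHg libraries against 30.4 ± 3.11 CPM in the controls, SD; -0.00028 ± 0.10) overlapped between the groups and did not pass. Setd7, a monomethylase of H3K4 and of many other proteins, had 333, 287 and 315 CPM in the MeHg libraries, against 432, 359 and 439.6 CPM in the controls. The groups did not overlap, and the test missed the threshold (-0.40 ± 0.09, adjusted p = 0.0578). Setd2, the enzyme that trimethylates lysine 36 of H3 behind RNA polymerase II, was at -0.21 ± 0.07 (adjusted p = 0.121) and Setd5, whose activity is debated, at -0.12 ± 0.06 (adjusted p = 0.253), both with the MeHg libraries below the controls. The actin methyltransferase gene Setd3 was at 161 ± 4.42 CPM in the MeHg libraries against 163 ± 1.92 CPM in the controls (SD; -0.02 ± 0.05), and Setd4 (0.03 ± 0.19) and Setd6 (0.13 ± 0.12) had adjusted p of 0.943 and 0.541.

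All 18 demethylase genes had negative log2 fold changes, with a median of -0.18, and 2 of them fell. The KDM3 enzymes act on mono- and dimethylated H3K9, a mark of silenced genes, although the activity of Jmjd1c itself is debated. Jmjd1c (chr10:66931904-67092105, plus strand) had 184, 189 and 177 CPM in the MeHg libraries, against 278, 255 and 266 CPM in the controls. It had the smallest p of all members, with replicates close together in both groups, and fell by 31.2% (-0.54 ± 0.06, adjusted p = 0.0431). The MeHg libraries also lay below the controls in Kdm3a (44.9 ± 3.52 CPM in the MeHg libraries against 52.1 ± 2.96 CPM in the controls, SD; -0.21 ± 0.08, adjusted p = 0.1705) and Kdm3b (97.0 ± 3.79 CPM in the MeHg libraries against 108 ± 1.05 CPM in the controls, SD; -0.16 ± 0.06, adjusted p = 0.142), neither of which passed.
Kdm7a (chr6:39113557-39183723, minus strand), which removes methyl groups from H3K9 and H3K27 and carries a PHD finger for trimethylated H3K4, had 93.8, 83.8 and 79.3 CPM in the MeHg libraries, against 114, 113 and 120.1 CPM in the controls. It fell by 25.9% (-0.43 ± 0.07, adjusted p = 0.0431). The related Kdm2a and Kdm2b bind unmethylated CpG through a CXXC domain and demethylate H3K36. Kdm2a was at -0.23 ± 0.05 (adjusted p = 0.0606) with no overlap of the groups, and Kdm2b at -0.22 ± 0.09 (adjusted p = 0.190) with an overlap.
Kdm5a removes methyl groups from trimethylated H3K4, the opposite reaction to that of the KMT2 enzymes. It had 66.0, 67.3 and 63.7 CPM in the MeHg libraries, against 81.6, 79.8 and 77.5 CPM in the controls, with no overlap, and missed the threshold (-0.28 ± 0.06, adjusted p = 0.0515). Kdm5b was at -0.21 ± 0.06 (adjusted p = 0.105). The H3K9 and H3K36 demethylases Kdm4a, Kdm4b and Kdm4c had log2 fold changes of -0.16, -0.19 and -0.26, and none passed, although all 3 were lower in every MeHg library than in every control. The flavin-dependent H3K4 demethylases Kdm1a (-0.04 ± 0.08) and Kdm1b (-0.13 ± 0.10), the H3K27 demethylase Kdm6b (-0.04 ± 0.08) and the 4 genes whose proteins hold little beside a JmjC domain, Kdm8 (-0.17 ± 0.15), Jmjd4 (-0.05 ± 0.12), Jmjd6 (-0.14 ± 0.12) and Jmjd8 (-0.02 ± 0.10), had adjusted p of at least 0.472.

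By histone residue, all 7 genes for H3K4 methyltransferases were lower in every MeHg library than in every control (3 fell, median -0.39), as were 3 of 4 for H3K4 demethylases (0 fell, median -0.17). The 7 for H3K9 demethylases showed the same separation (2 fell, median -0.21). It was also seen in 4 of 5 genes for H3K36 demethylases (0 fell, median -0.22) and in the 1 for an H3K36 methyltransferase, Setd2. Only 1 of 3 genes for H4K20 methyltransferases showed it (1 fell, median -0.00028). Of all tested genes, 15.5% had that separation and 1.79% were called lower. Of those of at least 10000 bases, the shares were 42.5% and 10.7%. The median gene length was 12068 bases for the H3K4 methyltransferases, 9826.5 for the H3K4 demethylases and 8225 for the H3K9 demethylases. It was 5823 bases for the H3K36 demethylases and 5307 for the H4K20 methyltransferases. The differences between these lists were not tested.

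Among the 8 acetyltransferase genes the median log2 fold change was -0.16, and 1 fell (12.5%, against 1.79% of all tested genes). Kat6a (chr8:23349551-23433275, plus strand), the catalytic subunit of a MYST family complex that acetylates H3, had 119.8, 132 and 109 CPM in the MeHg libraries, against 172, 151 and 153 CPM in the controls. The groups did not overlap, and Kat6a fell by 24.3% (-0.40 ± 0.08, adjusted p = 0.0466). Its paralogue Kat6b had 57.6, 59.5 and 43.7 CPM in the MeHg libraries, against 62.5, 61.0 and 65.2 CPM in the controls. There MeHg replicate 3 alone lay far below the controls (-0.23 ± 0.11, adjusted p = 0.243). Kat2b, a subunit of the SAGA type of coactivator complex, had 110.4, 106 and 107 CPM in the MeHg libraries, against 134, 122 and 129.6 CPM in the controls and did not pass by a small margin (-0.25 ± 0.06, adjusted p = 0.0545). Its paralogue Kat2a was at 55.2 ± 1.25 CPM in the MeHg libraries against 55.2 ± 2.58 CPM in the controls (SD; 0.00 ± 0.07). Kat7 (-0.13 ± 0.06), which acts on H3 and H4, and Kat8 (-0.19 ± 0.10), which acts on H4, had no overlap of the groups. Kat5 (-0.04 ± 0.08) and Kat14 (0.06 ± 0.08) did overlap, and all 4 had adjusted p of at least 0.236.

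The 9 deacetylase genes had a median log2 fold change of 0.01, and 0 passed. The class I enzymes, which carry most deacetylase activity of nuclear corepressor complexes, were at 0.01 ± 0.08 for Hdac1, -0.12 ± 0.08 for Hdac2 and 0.06 ± 0.07 for Hdac3, with overlapping groups. The class IIa proteins move between cytoplasm and nucleus with calcium signals and have weak catalytic activity of their own. Of these, Hdac4 had 43.2, 63.1 and 38.2 CPM in the MeHg libraries, against 68.0, 64.6 and 67.1 CPM in the controls. MeHg replicate 2 lay next to the controls and the other 2 MeHg libraries far below them, the estimate was -0.47 with an SE of 0.16 (adjusted p = 0.125), and its coefficient of variation in MeHg, 27.3%, was the widest of any member in either group. Without MeHg replicate 2 Hdac4 was at -0.70 (adjusted p = 0.0061) and without both libraries numbered 2 at -0.72 (adjusted p = 0.0026), and it passed in both fits, as it did with DESeq2 (-0.46, adjusted p = 0.0313) and with no filter on low counts (-0.47, adjusted p = 0.00017). Without MeHg replicate 3 it was at -0.32 (adjusted p = 0.287). Hdac5 (-0.15 ± 0.10), Hdac7 (0.19 ± 0.11) and Hdac9 (0.03 ± 0.12) overlapped. Hdac10, a polyamine deacetylase, was at 16.1 ± 0.827 CPM in the MeHg libraries against 20.1 ± 1.41 CPM in the controls (SD; -0.32 ± 0.10, adjusted p = 0.115) with no overlap. Hdac11, the one class IV enzyme, removes fatty acyl groups more readily than acetyl groups and had 124, 159 and 126 CPM in the MeHg libraries, against 115, 123 and 108 CPM in the controls. Every MeHg library lay above every control, with the largest positive value of the 51 (0.25 ± 0.10, adjusted p = 0.174).

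Levels between genes were compared in the deposited FPKM, which divide by gene length. Over the 6 libraries Setd7 (31.3 FPKM), Hdac11 (30.6), Hdac5 (25.5), Setd3 (25.1) and Kat2b (22.8) had the highest means, and Hdac9 (1.31), Setd4 (1.55), Kdm2b (3.09) and Kdm1b (3.15) the lowest. Setd7 was at 26.9 ± 2.15 FPKM in MeHg and 35.6 ± 3.94 FPKM in controls (SD, n = 3 each) and Hdac11 at 33.1 ± 4.49 FPKM in MeHg and 28.1 ± 1.82 FPKM in controls, so that their order was opposite in the groups. Hdac5 (24.0 ± 1.19 FPKM in MeHg and 26.9 ± 3.81 FPKM in controls) and Setd3 (24.9 ± 0.495 FPKM in MeHg and 25.3 ± 0.237 FPKM in controls) differed by less than the SD of Hdac5 in each group. The demethylases Kdm4b (17.2 FPKM), Kdm1a (12.2) and Kdm4a (11.9) led their class, and Kat2b, Kat7 (16.4) and Kat5 (16.2) led the acetyltransferases. The 8 members that fell were not the most abundant: they ranked from 12 (Kmt2a, 14.4 FPKM) to 36 (Setd1b, 5.55 FPKM) of 51. The library totals behind the FPKM were 1.08 to 1.09 times the summed gene counts in MeHg and 1.04 to 1.05 times in controls. This lowers FPKM in MeHg relative to counts scaled to the library total. The CPM given for each library use TMM-scaled sizes instead, so these factors do not apply to them.

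**Figure D3:**
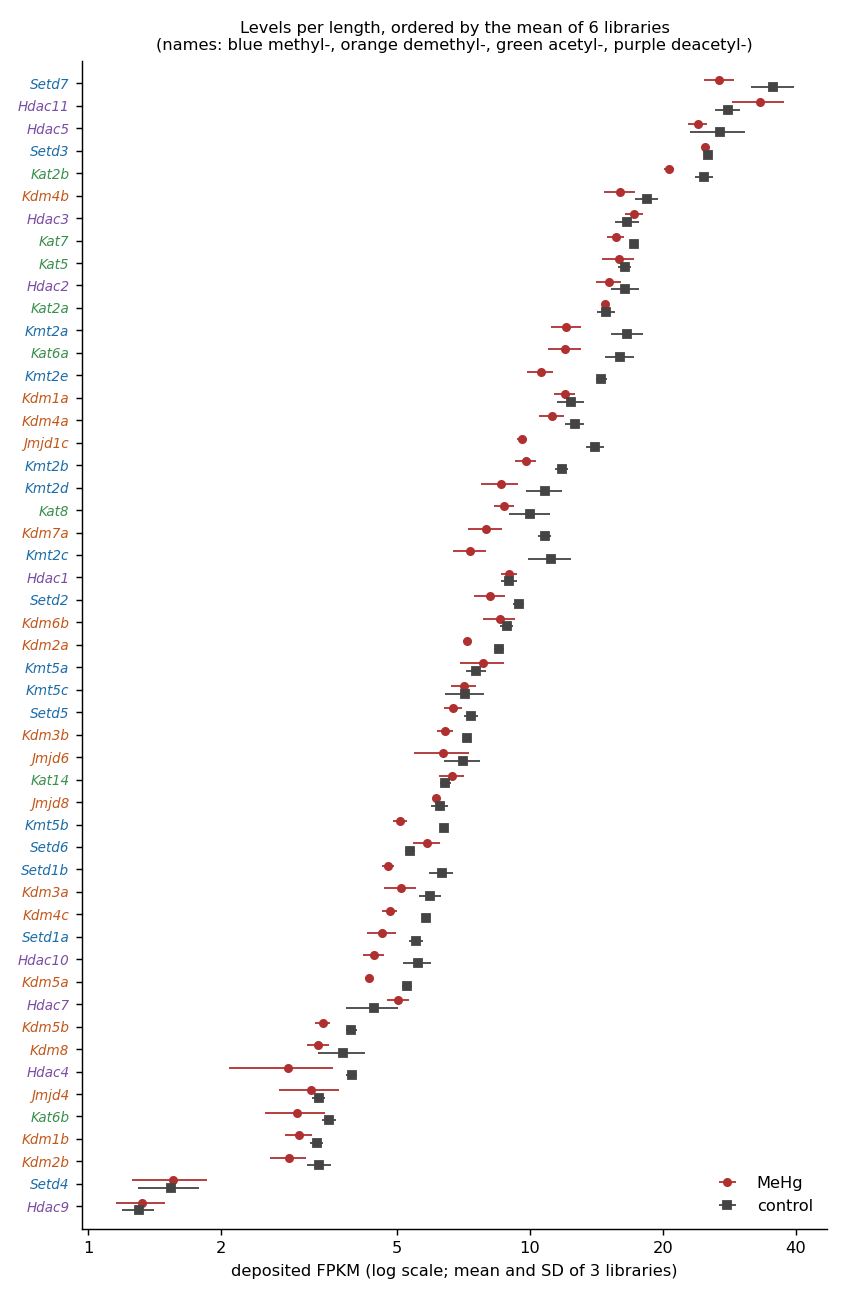
Deposited FPKM of the 51 members on a log axis, mean and SD of 3 MeHg libraries (red circles) and 3 control libraries (dark grey squares), ordered by the mean of all 6, with name colours for the 4 classes. Setd7 and Hdac11 stand at the top and Hdac9 at the bottom, and the groups lie close together in most rows.

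The members that fell are long in the deposited table. Their gene_length in the deposited table ran from 9330 (Kat6a) to 20291 bases (Kmt2c), with a median of 13410, against a median of 5782 bases in the 43 other members and 4105 over all tested genes. Across genes that share the same 6 libraries, the rank correlation of log2 fold change with length was -0.61 over the 51 members (-0.77 over 16 methyltransferases, -0.63 over 18 demethylases, -0.55 over 8 acetyltransferases, -0.20 over 9 deacetylases) and -0.21 over all 16859 tested genes.
Of the 19 members of at least 10000 bases, 7 fell (36.8%) and 17 had every MeHg library below every control (89.5%), and their median log2 fold change was -0.32. Over all 1483 tested genes of that length the shares were 10.7% and 42.5% and the median -0.14. From 5000 to under 10000 bases, 1 of 16 members fell (6.25%), 8 had every MeHg library below every control and the median was -0.13, against 2.26%, 22.6% and -0.05 over 5088 genes. Under 5000 bases, 0 of 16 members fell, 4 had that separation and the median was -0.03, against 0.272%, 8.16% and 0.06 over 10288 genes. The members of each bin were thus lower than all tested genes of that bin in their median, and the bins were not tested against each other. Lengths were not fully matched within a bin. Median lengths were 14752 bases in members and 12640 in all tested genes of the longest bin. In the middle bin they were 6395 and 6639 bases, and in the shortest 3679 and 2768.
The decline with length was visible in every MeHg library. Relative to the mean of the controls, tested genes of at least 10000 bases had a median log2 deviation of -0.14, -0.10 and -0.21 in MeHg replicates 1, 2 and 3, against -0.02 to 0.03 in the controls, and the 19 members -0.27, -0.32 and -0.37, against -0.04 to 0.03.
With an offset per library for length, 0 members and 0 of all tested genes passed, while 17 members had an unadjusted p under 0.05 (21.2% of all tested genes). The 8 members then ranged from -0.39 to -0.15 (adjusted p 0.0733 to 0.207), and the class medians were -0.13 for methyltransferases, -0.11 for demethylases and -0.08 for acetyltransferases. With offsets for length and GC content the 8 ranged from -0.40 to -0.16 (adjusted p 0.0733 to 0.202) and 0 passed, with 19 members at an unadjusted p under 0.05 (21.1% of all tested genes).

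**Figure D4:**
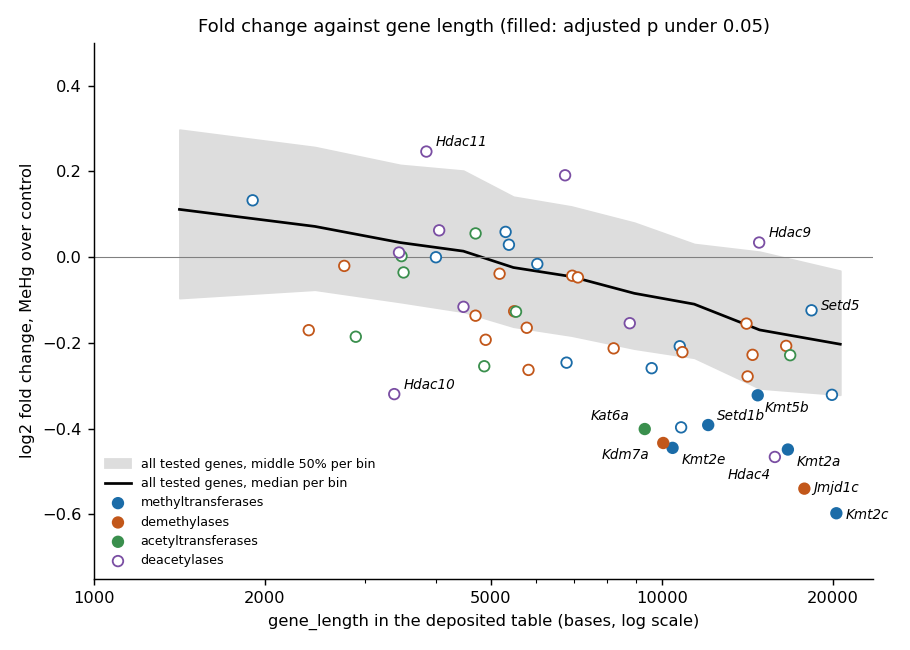
Log2 fold change, MeHg over control, against gene length on a log axis for the 51 members, coloured by class and filled at an adjusted p under 0.05, with the median and the middle 50% of all tested genes in bins of length. Both the line and the members decline with length, and the filled points, at 9330 bases and more, lie below the line.

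Of 10 lists of cell type markers, 3 held genes that passed, those of granule cells, ependymal cells and endothelial cells. Over all tested genes 1.79% were called lower and 0.575% higher. Fewer cells of a type and less RNA per cell cannot be told apart in whole tissue. Markers of granule cells, the most numerous cerebellar neurons, summed to 4957 to 5704 CPM in MeHg libraries and 6762 to 7250 CPM in controls, and 6 of 10 fell (median -0.41). Purkinje cell markers summed to 6860 to 8937 CPM in MeHg and 8989 to 9884 CPM in controls, and 0 of 8 passed. Markers of choroid plexus (2599 to 10310 CPM in MeHg, 155 to 3148 CPM in controls, 0 of 12 called), ependymal cells (59.1 to 92.6 CPM in MeHg, 22.6 to 35.3 CPM in controls, 4 of 9 higher) and brainstem and midbrain (52.9 to 233 CPM in MeHg, 18.9 to 47.8 CPM in controls, 0 of 5 tested called) had higher sums, with an overlap of the groups for choroid plexus. For brainstem and midbrain MeHg replicate 2 alone held the high sum, the other 2 MeHg libraries being at 56.3 and 52.9 CPM. Oligodendrocyte markers summed to 5954 to 8118 CPM in MeHg and 5281 to 6036 CPM in controls, astrocyte and Bergmann glia markers to 3078 to 3212 CPM in MeHg and 3293 to 3444 CPM in controls, 0 of either list passed, and the groups overlapped for oligodendrocytes. Microglia (124 to 153 CPM in MeHg, 108 to 118 CPM in controls, 0 of 7 called), endothelial (153 to 225 CPM in MeHg, 122 to 142 CPM in controls, 1 of 6 higher) and red blood cell markers (71.7 to 182 CPM in MeHg, 65.3 to 110.4 CPM in controls, 0 of 5 called, with an overlap) complete the lists, and no listed marker was at 0 in all libraries. With the choroid plexus score as a term, the 8 members stayed between -0.55 and -0.34, 0 members and 0 genes passed (adjusted p 0.387 for each of the 8), and 13 members had an unadjusted p under 0.05 (11.2% of all tested genes). The part of granule cell or other neuronal markers in the members' values was not tested.

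**Figure D5:**
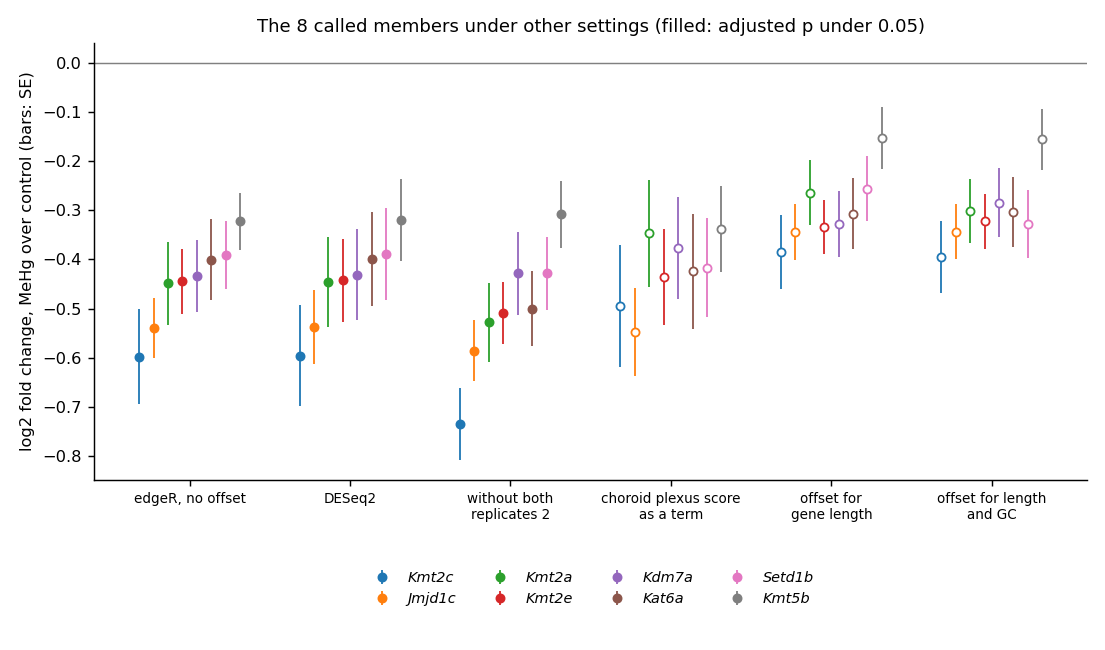
Log2 fold change (bars: SE) of the 8 members that passed, under the edgeR fit without offset, DESeq2, the fit without both replicates numbered 2, the choroid plexus score as a term, and the offsets for length and for length and GC, filled at an adjusted p under 0.05. All points lie below 0, those with a length offset closest to it, and none of the last 3 settings has a filled point.

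Other genes of histone methylation and acetylation, from 9 lists of related enzymes and complex partners, held 143 tested genes. Of these 4 fell (2.80%, against 1.79% of all tested genes) and 0 rose. The median log2 fold change of the 143 was -0.09, against 0.01 over all tested genes. Every MeHg library lay below every control in 32.2% of the 143, against 15.5% of all tested genes. The median gene length of the 143 was 5494 bases, and the share over all tested genes from 5000 to under 10000 bases was 22.6%. The 143 were not matched to other genes by length. Dot1l, the H3K79 methyltransferase and the only one of 22 other lysine methyltransferases to pass, had 165, 178 and 152 CPM in the MeHg libraries, against 224, 230 and 273 CPM in the controls. Its log2 fold change was -0.55 ± 0.09 (adjusted p = 0.0431). The nuclear receptor coactivator Ncoa2 (-0.35 ± 0.07, adjusted p = 0.0472), among 13 other acetyltransferases, the Polycomb partner Jarid2 (-0.33 ± 0.07, adjusted p = 0.0433), among 10, and the deacetylase corepressor Ncor1 (-0.39 ± 0.08, adjusted p = 0.0469), among 23, also fell. All 4 genes are long in the deposited table, from 8705 (Dot1l) to 15642 bases (Ncoa2). None of 12 partners of COMPASS passed, the smallest p being those of Ncoa6 (-0.24 ± 0.06, adjusted p = 0.0692) and Wdr82 (-0.26 ± 0.07, adjusted p = 0.0812), and none of 33 partners of acetyltransferases, where Brpf1, a scaffold of the Kat6 complexes, was at -0.34 ± 0.08 (adjusted p = 0.0532) and Supt20 at -0.35 ± 0.09 (adjusted p = 0.0645). The 9 arginine methyltransferases (Prmt2 0.33 ± 0.14, Prmt1 0.13 ± 0.06), the 9 sirtuins and X-linked deacetylases (Sirt1 -0.40 ± 0.12) and the 12 other demethylases (Phf8 -0.30 ± 0.08, Phf2 -0.22 ± 0.07) had 0 members that passed, the smallest adjusted p of the 3 lists being 0.0750.

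The members on the sex chromosomes did not pass. The X-linked demethylase genes Kdm5c (-0.31 ± 0.17, adjusted p = 0.284) and Kdm6a (-0.25 ± 0.14, adjusted p = 0.299) escape X inactivation and were lowest, within each group, in libraries with the RNA pattern of a male. Hdac6 was at 0.03 ± 0.09 and Hdac8 at -0.20 ± 0.10. The Y-linked Kdm5d was at 0, 38.7 and 0 CPM in the MeHg libraries, against 0, 45.1 and 57.4 CPM in the controls.

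Whether reads were counted by strand is not given in the sources used here, and 12 of the 51 members overlap a protein-coding gene on the opposite strand. Among the 8 that fell these are Kmt2e, which shares 972 bases with Srpk2 (-0.18 ± 0.08, adjusted p = 0.232), and Jmjd1c, which shares 821 bases with Reep3. Reep3 itself fell (-0.34 ± 0.07, adjusted p = 0.0444), by less than Jmjd1c. Kdm1a shares 4241 bases with Luzp1 and Kat5 4006 bases with Rnaseh2c, so their values can hold reads of the partner gene.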

How the data were processed

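RNA of 6 cerebella was sequenced with paired-end reads of 150 bases, per the labels' protocols. Raw whole-number counts per gene were deposited by the authors, with no normalisation. FPKM were deposited by the authors, made from the counts, gene length and a library total. The submitters' processing notes name mm39 and DESeq2. Aligner, counter and annotation release were not given in the sources used here.

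All genes of the count table were fitted together (filterByExpr, TMM, edgeR 4.0.16 with its quasi-likelihood test, under R 4.3.3, group as the only term), with Benjamini-Hochberg adjustment over 16859 genes and a threshold of 0.05. The SE is the absolute log2 fold change divided by the square root of F. CPM are relative to the TMM-scaled library size, except for the limit of 1 CPM and the genes just below it, which use the library total. Alternatives used limma 3.58.1, DESeq2 1.42.0, other scalings, filters and terms, loess offsets per library for the deposited gene length and for GC content of the longest transcript, and left-out libraries. Total counts of 14116088 to 20303833 give mean counts of 148 (Setd4) to 6043 (Setd7) per member. The procedure was tested on simulated data.

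The members, lists, tests and alternatives were chosen with earlier results of these data known. Named first are members that passed, the 3 with the smallest p and the 2 highest and 2 lowest in FPKM of each class, the extremes of fold change, subfamilies of members that passed, and, of each further list, genes that passed or the 2 with the smallest p. The other members are given so that all are accounted for. No 2 libraries of a group were copies (chi-square per degree of freedom 7.11 to 17.8).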

Additional observations from a re-analysis of the deposited data

How the results depend on the processing

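The number of members that passed was 8 in the analysis reported (1.79% of all genes lower). It was also 8 with DESeq2 size factors (1.67%), without the 20 most abundant genes (1.59%) and with a filter at 1 CPM (1.83%). It was again 8 with the labelled sex as a term (2.47%) and with limma-voom (1.65%). With the Xist level as a term in place of the label it was 11, all lower, while 794 of all genes were called lower and 846 higher, against 301 lower and 97 higher in the analysis reported. It was 5 with upper-quartile scaling (0.706% of all genes lower), where Kat6a, Kmt2a and Kmt5b were lost. It was 15 with no filter on low counts (14 lower, and Hdac11 higher), with 3.66% of all genes lower and 3.73% higher. It was also 15 with DESeq2 (5.31% of all genes it tested called lower) and at an adjusted p under 0.1 (6.03% lower). It was 14 without both libraries numbered 2 (6.65% lower). It was 0 at an adjusted p under 0.01, with the choroid plexus score as a term, with an offset for gene length, with offsets for length and GC content, and with limma on log2(FPKM + 1), on log2(FPKM + 0.1) and on log2(FPKM + 1) without a filter (22, 21 and 25 members at an unadjusted p under 0.05, against 23.0%, 23.1% and 13.6% of all genes), and no gene of the whole table passed in these 7 either. Leaving out 1 library at a time it ranged from 0 to 11. The cause of these shifts was not tested.

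The median of the methyltransferases, -0.25, was -0.19 with the choroid plexus score, -0.13 with the length offset and -0.17 with length and GC content, and -0.29 to -0.20 with a library left out. That of the demethylases, -0.18, was -0.11 with the length offset and -0.12 with length and GC content, and -0.22 to -0.16 with a library left out. That of the acetyltransferases, -0.16, was -0.092 with the choroid plexus score, -0.083 with the length offset and -0.10 with length and GC content, and -0.18 to -0.091 with a library left out. The median of the deacetylases, 0.01, ranged from -0.038 to 0.0082 with a library left out, so it has no direction. The rank correlation with length over the members, -0.61, was -0.20 after the length offset. Over all tested genes, without an offset, it was -0.21. Kdm3b, at -0.16, was at 0.0057 with the length offset, the one change of sign among the members named first whose estimate exceeded its SE. Among the other members, Setd5, at -0.12 ± 0.06, was at 0.075 with the length offset and 0.046 with length and GC content. Kdm8, at -0.17 ± 0.15, was at 0.026 with the choroid plexus score. Of the members named first, Hdac9, Kdm1a, Kmt5c, Setd3 and Setd4, with estimates below their SE, also changed sign between settings. In 23 settings the 8 members that passed stayed negative.

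With the replicate number as a block 9 members passed (2.31% of all genes called lower, 3.84% in either direction; 2.36% in either direction without the block). Same-numbered libraries did not all deviate together (correlations of 0.20, 0.37 and -0.24 for numbers 1, 2 and 3), so the numbers were not read as pairs, and the labels name no shared litter or batch. With 3 libraries a group and adjusted p just under 0.05, single calls among the members rest on small margins.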
